A study of Rattus norvegicus with 15 samples.

Results

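Leukocyte miRNAs are microRNAs that are best known from white blood cells, and 6 of the 350 rat miRNAs on these liver arrays were taken as such by name: miR-223, miR-142-3p, miR-142-5p, miR-146a, miR-150 and miR-342-3p. Of these 6, 5 were detected on enough arrays to be tested, among 134 tested miRNAs in all. The study followed miRNA levels during liver regeneration in rats kept for a long time on an ethanol diet (EtOH) and in rats pair-fed a carbohydrate control diet (CHO). Liver was sampled at partial hepatectomy (PHx), the surgical removal of part of the liver, and at 1, 6, 12 or 24 h after it. There were 3 EtOH and 4 CHO arrays before PHx and 1 array for each diet at each of the 4 times after it, 15 in all. Each array held RNA pooled from 4 animals, so spread between arrays is spread between pools and not between animals. With 1 pool per diet and time after PHx, the p-values do not measure that spread alone. They also take in how the diet difference varied between the times, and most treat arrays of the same animals as independent. Samples before PHx came from animals that then underwent it, an EtOH array before PHx to pair with the 24 h pool was not analysed here, and the sources used here give no strain, sex or age.

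White blood cells reach or live in the liver as Kupffer cells, recruited neutrophils and monocytes, and lymphocytes, and a piece of liver also holds the blood in its vessels. MiR-223 is a myeloid miRNA, abundant in neutrophils and monocytes, where it restrains inflammatory activation. The Mir142 hairpin yields both miR-142-3p and miR-142-5p and is active in nearly all blood lineages. MiR-146a is induced by NF-kappaB and damps signalling from Toll-like receptors through Irak1 and Traf6. It is not restricted to leukocytes. MiR-150 is abundant in mature lymphocytes, where it limits Myb, and miR-342-3p is made from a hairpin inside the Evl gene and is found in lymphoid and other blood cells. In whole liver, fewer cells of a type and less of the miRNA per cell cannot be told apart.

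The mature sequences below show how members differ in the seed, bases 2 to 8, which is in capitals. They are RefSeq sequences on build GRCr8, written 5′ to 3′ and found for 5 of the 6 members, all but miR-150. The seed is the part that pairs with target messenger RNAs.
miR-223: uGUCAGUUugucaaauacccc
miR-142-3p: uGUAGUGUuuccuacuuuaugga
miR-142-5p: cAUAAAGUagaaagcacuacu
miR-146a: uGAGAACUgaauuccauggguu
miR-342-3p: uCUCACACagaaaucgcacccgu

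The 5 sequences have 5 distinct seeds, and among 724 mature sequences in the table only miR-146b-5p shares a seed with any of them, that of miR-146a. MiR-223 lies at chrX:65151450-65151470 on the plus strand. MiR-146a lies at chr10:28350053-28350074 on the minus strand. MiR-342-3p lies at chr6:133329715-133329737 on the plus strand, within the span of Evl. The 2 miR-142 arms come from 1 hairpin of 87 bases at chr10:73055104-73055190 on the plus strand, which overlaps the span of Tspoap1. The gene table used here does not give exons and introns. The hairpin is shown with both arms in capitals, miR-142-5p first, because its arms differed in detection.
Mir142: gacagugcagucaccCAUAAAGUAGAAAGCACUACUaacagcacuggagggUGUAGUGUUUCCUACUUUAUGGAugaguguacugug

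Values are scaled signals: the mean brightness of a miRNA's probe, divided by the array's 75th percentile of probes detected everywhere and brought back to the scale of the intensities. Signals under 9.61 were set to that floor. Between 108 and 131 miRNAs were detected per array, and the number of arrays limits the precision. The third EtOH array before PHx was the dimmest and had a median spread between spots of 36.6% (coefficient of variation), against 6.75% to 8.62% on the other 14. MiR-122, the defining hepatocyte miRNA, was present on all 15 arrays, between 33470 and 44010. A level is compared only between arrays for the same probe, since probes differ in brightness.

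MiR-223, miR-142-3p, miR-146a and miR-150 were detected on all 15 arrays. MiR-342-3p was detected on 11 of 15 and lay at the floor on both 24 h arrays. MiR-142-5p was not well above background on any of the 15 arrays with either of its probes, so it was not tested, although miR-142-3p from the other arm was detected on every array.

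MiR-223 was the member that rose after hepatectomy. It was higher at 6, 12 and 24 h in both diets, by a fold of 1.59, 1.89 and 1.51, and did not pass the test at 1 h. No other member passed the test at any time after PHx. Before PHx the CHO pools had miR-223 signals of 60.65, 63.5, 77.3 and 63.9, a mean of 66.35 ± 7.44 (SD, n = 4). The EtOH pools before PHx had 67.3, 64.6 and 70.8, a mean of 67.6 ± 3.11 (SD, n = 3). Before surgery the diets thus overlapped, and the 7 arrays lay between 60.65 and 77.3. After PHx the CHO signals were 63.1 at 1 h, 114.3 at 6 h, 143.5 at 12 h and 96.3 at 24 h. The EtOH signals were 76.9, 99.0, 111.6 and 105.9 at the same times. All 6 arrays at 6, 12 and 24 h lay above all 7 arrays before PHx, while both 1 h arrays lay within the earlier range. Such a separation of 6, 12 and 24 h from before PHx, in either direction, was found for 5 of the 134 tested miRNAs, or 3.73%.

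**Figure D1:**
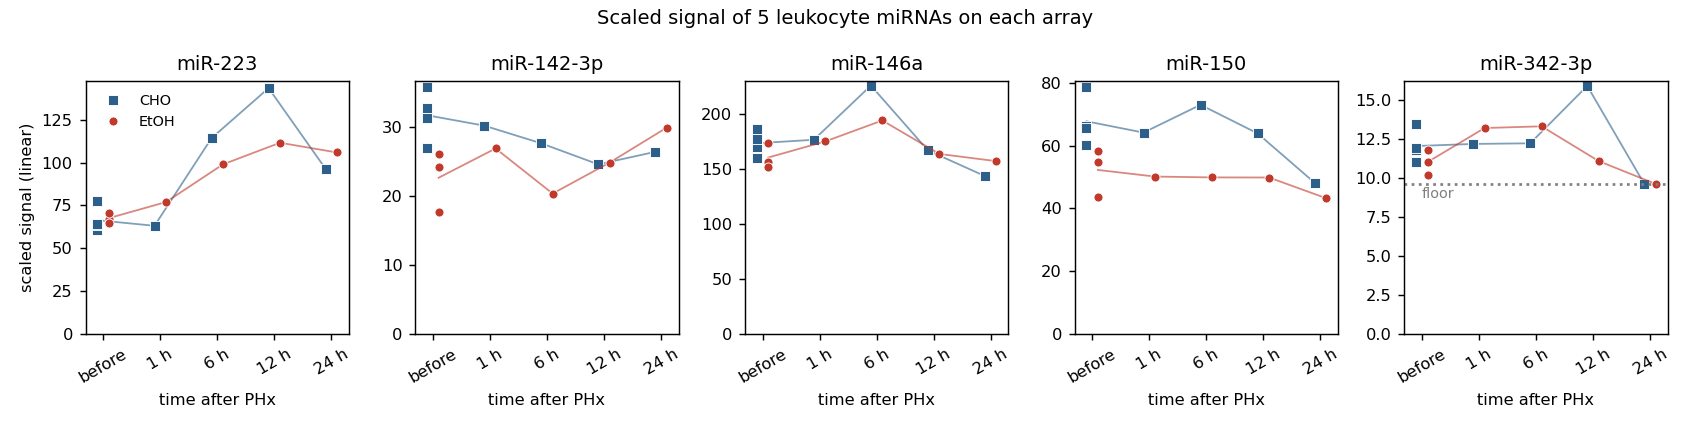
Scaled signal (linear axis from 0) of the 5 tested members on each of the 15 arrays, before partial hepatectomy (PHx) and 1, 6, 12 and 24 h after it; points are pools, squares CHO and circles EtOH, lines join the mean before PHx and the single arrays after it, and the dotted line is the floor of 9.61. MiR-223 climbs from 60.65 to 77.3 before PHx to 96.3 to 143.5 at 6 to 24 h. The EtOH points of miR-150 lie below the CHO points of the same time, before PHx and at each time after it.

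The change was estimated with limma over both diets together, with Benjamini-Hochberg adjustment over the 134 tested miRNAs. On the log2 scale miR-223 changed by 0.06 at 1 h (SE 0.126, adjusted p 0.980). It rose by 0.67 at 6 h (SE 0.126, adjusted p 0.0104), by 0.92 at 12 h (SE 0.126, adjusted p 0.000633) and by 0.60 at 24 h (SE 0.126, adjusted p 0.00875). The mean over the 4 times was a rise of 0.56 (SE 0.0818, adjusted p 0.000813), a fold of 1.48. Of the members, 1 of 5 passed at 6, 12 and 24 h and for the mean, each time miR-223 and upward. Of all tested miRNAs 4.48% passed at 6 h, 5.97% at 12 h, 13.4% at 24 h and 6.72% for the mean. At 1 h 0.0% passed, with 4 of 134 at an unadjusted p under 0.05 and no member among them. The median change of the 5 members was 0.15 at 6 h, -0.01 at 12 h and -0.15 at 24 h, against 0.07, 0.06 and 0.02 over all tested miRNAs.

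The 6 h and 24 h calls of miR-223 each rested on the few arrays at that time, and the 12 h call held without any 1 array. Without the CHO 6 h array the 6 h change was 0.56 (adjusted p 0.325), and without the EtOH 6 h array 0.79 (adjusted p 0.158). Without the EtOH 24 h array the 24 h change was 0.48 (adjusted p 0.180). With each array left out in turn the 12 h change stayed between 0.70 and 1.14 and the mean change between 0.51 and 0.62, and both kept passing. The number of miRNAs called at 6 h fell from 6 to 0 without the EtOH 6 h array and to 1 without the CHO 6 h array, and at 24 h from 18 to 11 without the EtOH 24 h array.

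Another background correction ended all of these calls. With normexp, whose fit failed on 2 arrays, miR-223 changed by 0.32 at 6 h (adjusted p 0.999), 0.42 at 12 h (adjusted p 0.995), 0.91 at 24 h (adjusted p 0.136) and 0.39 for the mean (adjusted p 0.920). With normexp and 1 background value per array the changes were 0.37 at 6 h (adjusted p 0.514), 0.49 at 12 h (adjusted p 0.0617), 0.30 at 24 h (adjusted p 0.305) and 0.28 for the mean (adjusted p 0.122). The 6 h call was also lost under 5 other settings of scaling, detection filter and pairing, with values of 0.54 to 0.73 and adjusted p of 0.0503 to 0.287. Over all alternatives the adjusted p of miR-223 ran from 0.00368 to 0.999 at 6 h, from 0.000492 to 0.995 at 12 h and from 0.000242 to 0.920 for the mean. In each of these alternatives the change was above 0.

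For 7 pools the same 4 animals were measured both before and after PHx, so the rise could also be read within pools. MiR-223 was higher after PHx in 7 of 7 pools. The differences were 0.06, 0.85, 0.89 and 0.59 in the CHO pools of 1, 6, 12 and 24 h. They were 0.19, 0.62 and 0.66 in the EtOH pools of 1, 6 and 12 h. The smallest were those of the 1 h pools in both diets. With the pool as a block in limma, miR-223 rose by 0.73 at 6 h (adjusted p 0.0426), by 0.77 at 12 h (adjusted p 0.0407) and by 0.54 for the mean (adjusted p 0.0161). At 24 h the blocked value was 0.54 and no longer passed (adjusted p 0.274, in a range of 0.00436 to 0.305 over all alternatives). That blocked fit has 2 residual degrees of freedom.

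The arrays came from 2 slides, with the 1 h and 6 h pools on slide 1 and the 12 h and 24 h pools on slide 2, each with its own arrays before PHx. Within slide 1 miR-223 rose by 0.73 at 6 h (adjusted p 0.00818). Within slide 2 it rose by 0.84 at 12 h (adjusted p 0.0250), and the 24 h change of 0.52 did not pass (adjusted p 0.0970). Neither the step from 1 to 6 h (0.61, adjusted p 0.165), from 6 to 12 h (0.25, adjusted p 0.792) nor from 12 to 24 h (-0.33, adjusted p 0.355) passed for miR-223. These steps share arrays with each other, and 0.0% of the tested miRNAs passed for 6 h minus 1 h, 0.0% for 12 h minus 6 h and 0.0% for 24 h minus 12 h. The counts at an unadjusted p under 0.05 were 12, 9 and 19 of 134. So the order of the levels at 6, 12 and 24 h is not settled beyond their spread.

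**Figure D2:**
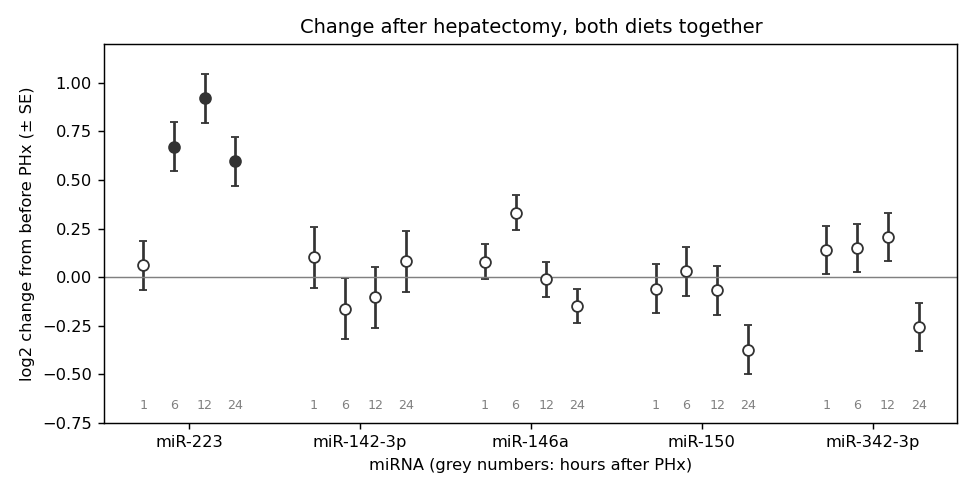
Change from before PHx in log2 scaled signal, both diets together, for the 5 tested members at 1, 6, 12 and 24 h (grey numbers); error bars are the SE of the limma fit, and filled points passed an adjusted p under 0.05. The filled points are miR-223 at 6, 12 and 24 h, at 0.67, 0.92 and 0.60.

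The rise of miR-223 was present in each diet. Against its own mean before PHx, miR-223 in CHO changed by -0.07, 0.79, 1.12 and 0.54 at 1, 6, 12 and 24 h. In EtOH it changed by 0.19, 0.55, 0.72 and 0.65. The diets differed in neither phase by the test: EtOH minus CHO was 0.03 before PHx (SE 0.120, adjusted p 0.920) and -0.04 after it (SE 0.111, adjusted p 0.837). The test of the difference between those phases gave -0.07 for miR-223 (SE 0.164, adjusted p 0.932). In that test 0.0% of the 134 miRNAs passed, with 9 at an unadjusted p under 0.05. At single times EtOH minus CHO for miR-223 was 0.29 at 1 h, -0.21 at 6 h, -0.36 at 12 h and 0.14 at 24 h. None of these passed (adjusted p 0.583 to 0.982). Those comparisons rest on 1 pool against 1 and assume that pools after PHx vary like pools before it.

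Markers of other cells were set beside the rise. Of 12 other miRNAs of immune cells and inflammation, 10 were on the array and 3 were tested. MiR-21, which many cell types raise in inflammation and growth, rose by 0.51 at 6 h (adjusted p 0.0253), by 0.82 at 12 h (adjusted p 0.000633) and by 1.11 at 24 h (adjusted p 6.94e-05). MiR-181a and miR-212 did not pass in any of these comparisons, with mean changes of -0.01 and -0.19. MiR-146b, which shares the seed of miR-146a, was detected on 2 arrays and was not tested. The erythroid miR-451 and miR-144 stand for blood held in the tissue, with 2 of 3 listed miRNAs on the array and both tested. Neither passed. Their summed signal over both diets lay between 621 and 1230 before PHx (median 851) and between 362 and 924 at 6 to 24 h (median 861). By diet, the mean of miR-451 was 902 before and 604 after PHx in CHO, and 783 and 962 in EtOH. After PHx it lay between 352 and 840 in CHO and between 863 and 1197 in EtOH. The change in its diet difference was 0.91 and did not pass (adjusted p 0.587). The 3 hepatocyte miRNAs tested had mean changes with a median of -0.06, and none passed. The endothelial pair (median 0.03) and the 5 stellate miRNAs (median 0.19) did not pass for the mean change either.

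MiR-142-3p, the pan-leukocyte member, did not rise with miR-223. Its signal in CHO was 27.1, 32.8, 31.3 and 35.85 before PHx and 30.3, 27.7, 24.6 and 26.5 at 1, 6, 12 and 24 h. In EtOH it was 26.1, 17.7 and 24.2 before PHx and 26.9, 20.4, 24.9 and 29.98 after it. Set against its own diet, EtOH at 1 h and 24 h lay above all EtOH arrays before PHx, and CHO at 12 h and 24 h lay below all CHO arrays before PHx. These are single arrays, and the share of all tested miRNAs that lay apart in this way was not computed. The changes from the diet's own mean were 0.27, -0.13, 0.15 and 0.42 in EtOH and -0.06, -0.19, -0.36 and -0.26 in CHO at 1, 6, 12 and 24 h. The mean change over both diets, -0.02 (SE 0.102, adjusted p 0.950), thus averages values that differ in sign at 1, 12 and 24 h. It was higher after PHx in 4 of 7 pools.

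MiR-142-3p was instead called for diet before surgery, lower in EtOH. The 3 EtOH pools before PHx had a mean of 22.7 ± 4.39 (SD, n = 3), and the 4 CHO pools 31.8 ± 3.65 (SD, n = 4). The groups did not overlap, the highest EtOH pool being at 26.1 and the lowest CHO pool at 27.1. EtOH minus CHO was -0.50 on the log2 scale (SE 0.149, adjusted p 0.0435), a fold of 0.708. It was 1 of 5 members to pass, against 15.7% of all tested miRNAs. Among all tested miRNAs 34, or 25.4%, had no overlap between the diets before PHx, so neither count sets the members apart. Of the 21 miRNAs called for diet before PHx, 17 were lower in EtOH and 4 higher. The median difference over all 134 tested was -0.075. That count of 21 rose to 34 without EtOH replicate 3 before PHx, the array with the wide spread between spots. It was 14 to 22 without any other array. After PHx the difference of miR-142-3p was -0.10 (SE 0.138, adjusted p 0.705), and at single times -0.17, -0.44, 0.02 and 0.18. The change in its diet difference from before to after PHx was 0.39 (SE 0.203, adjusted p 0.638), so the 2 phases were not shown to differ.

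That call rested on few arrays. It was lost when any of 6 arrays was left out, with values of -0.50 to -0.33 and adjusted p of 0.0650 to 0.141. Those arrays were EtOH replicate 2 before PHx, CHO replicates 2, 3 and 4 before PHx, and either 1 h array. Within slide 1 and slide 2 the difference was -0.47 each, with adjusted p of 0.147 and 0.142. With the sets of pair-fed pools as a block it was -0.44 (adjusted p 0.125). The adjusted p ranged from 0.00322 to 0.573 over all alternatives, and with background correction by normexp the sign turned to 0.36. Some markers of other cell types were also lower in EtOH before PHx, and others were not. Of 5 biliary miRNAs listed, 3 were tested, and miR-200a (-0.45, adjusted p 0.0167) and miR-200b (-0.57, adjusted p 0.0152) were lower in EtOH before PHx while miR-429 (-0.08) did not pass. The summed signal of the 3 lay between 57.9 and 83.0 in CHO and between 49.1 and 70.1 in EtOH, over all times, and miR-200c and miR-141 were detected on no array. Of the 5 stellate miRNAs tested none passed before PHx. While 25.4% of all tested miRNAs did not overlap between diets, in either direction, 3 of these 5 did not, all lower in EtOH. These were miR-199a-3p (-0.47, adjusted p 0.0534, 63.95 to 78.41 in EtOH and 84.95 to 111.5 in CHO), miR-199a-5p (-0.37, adjusted p 0.118) and miR-143 (-0.24, adjusted p 0.103). MiR-145 (0.24) and miR-214 (-0.08) overlapped. Of the endothelial pair neither passed: miR-126 (-0.18, adjusted p 0.144) lay between 1034 and 1103 in EtOH and between 1170 and 1263 in CHO, and miR-126* (-0.24, adjusted p 0.232) overlapped. Of the 3 hepatocyte and 2 erythroid miRNAs tested, none passed before PHx. The differences were 0.03, 0.01 and 0.18 for miR-122, miR-192 and miR-194, and -0.17 and -0.24 for miR-451 and miR-144. The part of these cells in the miR-142-3p difference was not tested.

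MiR-150, the member of mature lymphocytes, was lower in ethanol-fed livers in both phases, although neither phase passed by itself. The CHO signals were 66.4, 65.6, 78.8 and 60.2 before PHx and 64.1, 73.0, 63.9 and 48.1 at 1, 6, 12 and 24 h. The EtOH signals were 43.7, 54.8 and 58.2 before PHx and 50.1, 49.8, 49.8 and 43.2 after it. Before PHx the diets did not overlap, the highest EtOH pool being at 58.2 and the lowest CHO pool at 60.2. The same lack of overlap, in either direction, was found for 34 of 134 tested miRNAs, or 25.4%. After PHx the EtOH array was the lower at every time. EtOH minus CHO was -0.38 before PHx (SE 0.120, adjusted p 0.0534) and -0.35 after it (SE 0.111, adjusted p 0.0631). With both forms of normexp the sign before PHx turned, to 0.18 and 0.04. The value after PHx stayed below 0 in all alternatives, from -0.61 to -0.10. Of the members 0 of 5 passed for diet after PHx, against 7.46% of all tested miRNAs. That count, 10 of 134, moved widely with single arrays, to 33 without EtOH replicate 3 before PHx, to 1 without any 1 of the 1 h and 6 h arrays, and to 2 without CHO replicate 1 or 2 before PHx. At an unadjusted p under 0.05, where 41 of 134 lay, miR-150 was the 1 member.

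At single times miR-150 differed by -0.36 at 1 h, -0.55 at 6 h, -0.36 at 12 h and -0.16 at 24 h, none of which passed. The sign at 12 h turned to 0.10 with quantile normalization, and at 24 h it turned under 3 of the other scalings, to between 0.03 and 0.25. Diet at a single time was called for 0.746% of the tested miRNAs at 1 h, 0.0% at 6 h, 3.73% at 12 h and 0.0% at 24 h, and for no member. At 6 h and 24 h 18 and 7 of the 134 had an unadjusted p under 0.05, again without a member. A lower EtOH level before PHx and at each of the 4 times was found for 31 of 134 tested miRNAs, or 23.1%, and among the members for miR-150 alone.

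The mean of the diet differences before and after PHx, a contrast chosen after the values were seen, was -0.37 for miR-150 (SE 0.0814, adjusted p 0.00618), a fold of 0.776. The test called 26.1% of all tested miRNAs, 35 of 134 (22 without either 6 h array), and 2 of 5 members, miR-150 and miR-142-3p. Of those 35, 27 were lower in EtOH and 8 higher, and the median over all 134 was -0.072. Leaving out each array in turn kept the miR-150 value between -0.41 and -0.31 and the call. It was -0.44 within slide 1 (adjusted p 0.0104) and -0.25 within slide 2, where it did not pass (adjusted p 0.357). With the sets of pair-fed pools as a block it was -0.39 (adjusted p 0.00613), and both phases then passed by themselves, at -0.43 before PHx (adjusted p 0.0317) and -0.35 after it (adjusted p 0.0484). The arrays before and after PHx of a pool hold the same animals, and with the pool as a random block the mean was -0.36 (adjusted p 0.00896). Averaged to 1 value for each of the 4 sets of pair-fed pools, EtOH minus CHO was -0.48, -0.40, -0.40 and -0.16 in the sets of 1, 6, 12 and 24 h, below 0 in 4 of 4 (exact sign flips, p 0.125, the smallest that 4 sets can give). The adjusted p of the mean ranged from 0.00355 to 0.997 over all alternatives. It was lost with the percentile taken over all probes (-0.21, adjusted p 0.123) and with quantile normalization (-0.25, adjusted p 0.0808). For miR-142-3p the same mean was -0.30 (SE 0.102, adjusted p 0.0491). It was lost without any of 10 arrays and with the pool as a random block (adjusted p 0.0644, in a range of 0.00801 to 0.997).

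Over both phases, 2 of 3 biliary miRNAs (miR-200a at -0.25 and miR-200b at -0.28) and 1 of 5 stellate miRNAs (miR-143 at -0.19, adjusted p 0.0491) were also called lower in EtOH. Of the 2 erythroid, 2 endothelial, 3 hepatocyte and 3 other immune miRNAs tested, none was called. The summed erythroid signal lay between 362 and 1230 in CHO (median 750) and between 629 and 1210 in EtOH (median 883). EtOH minus CHO for miR-451 was -0.17 before PHx (adjusted p 0.680) and 0.73 after it (adjusted p 0.0631). The endothelial sum lay between 1172 and 1300 in CHO and between 1032 and 1236 in EtOH. The part of these cells in the miR-150 difference was not tested. MiR-150 itself did not pass for a change after PHx. Its mean change was -0.12 (SE 0.0814, adjusted p 0.486). At 24 h, where each diet had its lowest array, the change was -0.37 (SE 0.126, adjusted p 0.0794), and 3 of 31 alternatives called it. Against the diet's own mean before PHx it was -0.49 in CHO and -0.26 in EtOH at 24 h.

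**Figure D3:**
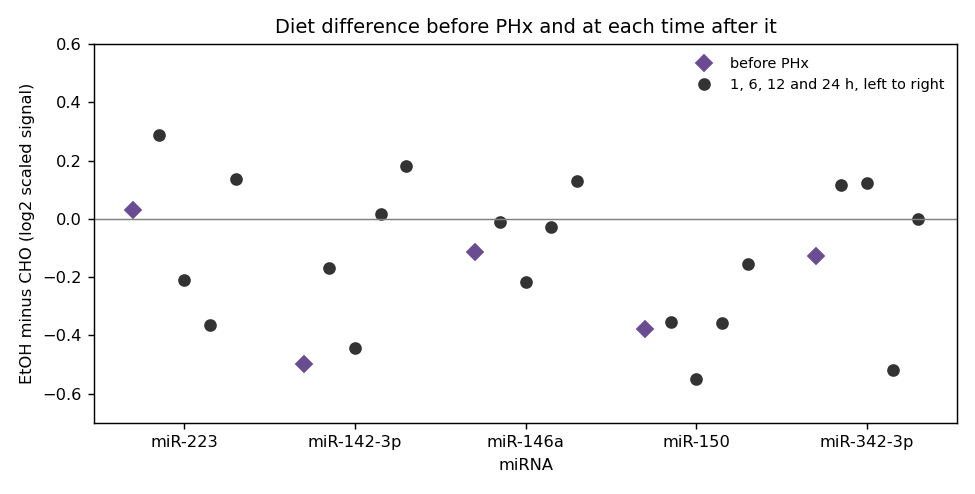
EtOH minus CHO in log2 scaled signal for the 5 tested members, before PHx (diamonds, 3 against 4 pools) and at 1, 6, 12 and 24 h from left to right (circles, 1 pool against 1). MiR-150 lies below 0 at each point, from -0.55 to -0.16, while miR-223 lies on both sides, from -0.36 to 0.29.

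MiR-146a, the feedback regulator of inflammatory signalling, had its highest array of each diet at 6 h, without passing the test. In CHO its signal was 170.2, 187.0, 177.1 and 160.2 before PHx and 176.8, 226.2, 167.1 and 143.7 at 1, 6, 12 and 24 h. In EtOH it was 156.4, 173.7 and 151.8 before PHx and 175.3, 194.4, 163.9 and 157.3 after it. Both 6 h arrays lay above all 7 arrays before PHx, and the arrays at 12 and 24 h lay within or below that range. The share of all tested miRNAs with such a separation at 6 h was not computed. The change at 6 h was 0.33 (SE 0.0895, adjusted p 0.0634). It was 0.22 with the pool as a block (adjusted p 0.523). Neither the step from 1 to 6 h (0.25, adjusted p 0.511) nor that from 6 to 12 h (-0.34, adjusted p 0.278) passed, so a peak at 6 h was not shown. The change at 12 h was -0.01 and at 24 h -0.15, and the diets differed by -0.11 before PHx and -0.03 after it, none of which passed.

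MiR-342-3p, the other member found in lymphoid cells, was the dimmest of those tested and varied close to the floor. In CHO it was 11.8, 11.9, 13.4 and 11.0 before PHx and 12.2, 12.2, 15.9 and 9.61 at 1, 6, 12 and 24 h. In EtOH it was 11.8, 11.0 and 10.2 before PHx and 13.2, 13.3, 11.1 and 9.61 after it. The 24 h values are the floor in both diets, so their difference has no meaning. The single high array was CHO at 12 h. EtOH minus CHO at 12 h was -0.52 (SE 0.157, adjusted p 0.208), the change from 12 to 24 h was -0.47 (SE 0.154, adjusted p 0.216), and no comparison passed. The mean change was 0.06 (SE 0.0800, adjusted p 0.791).

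MiR-223 was then set against each other member within the same array, as the log2 ratio of their scaled signals. Where neither signal is at the floor, dividing an array by 1 factor leaves such a ratio as it was. On the 24 h arrays miR-342-3p was at the floor, so its ratio there depends on the scaling. Only the change of a ratio between arrays is read, since probes differ in brightness. The ratio to miR-150 was -0.13, -0.05, -0.03 and 0.09 in CHO before PHx and 0.62, 0.24 and 0.28 in EtOH before PHx. After PHx it was -0.02, 0.65, 1.17 and 1.00 in CHO and 0.62, 0.99, 1.16 and 1.29 in EtOH. At 6 to 24 h the ratio thus lay between 0.65 and 1.29, above all 7 arrays before PHx. The ratio to miR-146a lay between -1.56 and -1.10 before PHx and between -0.98 and -0.22 at 6 to 24 h, again with no overlap. The ratio to miR-342-3p lay between 2.36 and 2.79 before PHx and between 2.90 and 3.46 at 6 to 24 h, where its 24 h values are lower bounds because miR-342-3p was at the floor. The ratio to miR-142-3p lay between 0.83 and 1.86 before PHx and between 1.82 and 2.54 at 6 to 24 h, with a small overlap. For each ratio the 1 h arrays lay within the range of the arrays before PHx.

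**Figure D4:**
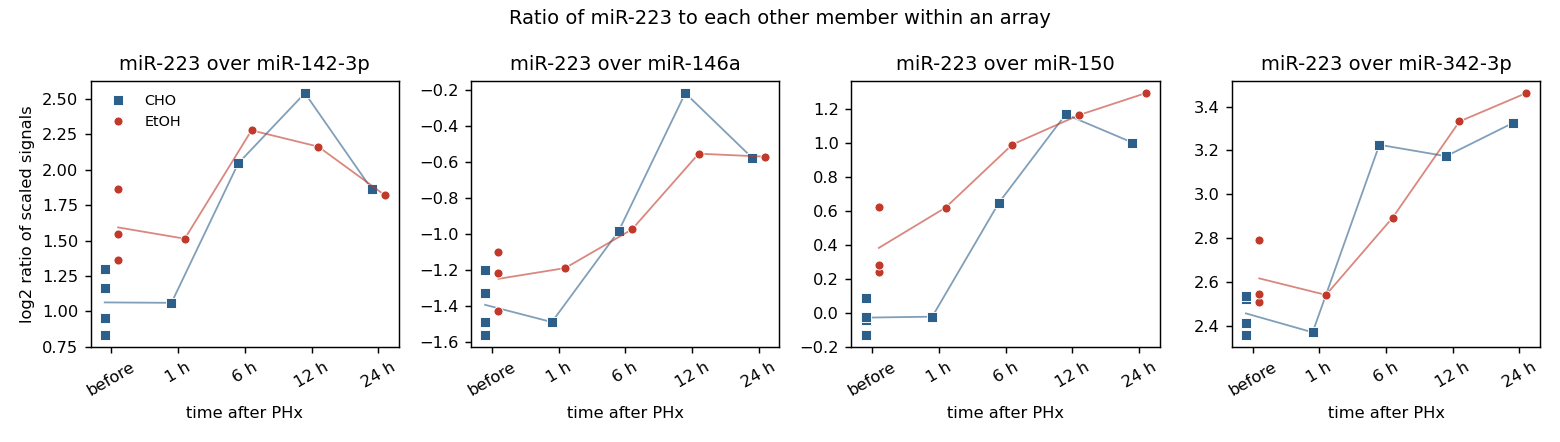
Log2 ratio of the scaled signal of miR-223 to that of miR-142-3p, miR-146a, miR-150 and miR-342-3p within each of the 15 arrays, by time and diet (squares CHO, circles EtOH; lines join the mean before PHx and the single arrays after it; axes do not start at 0). Each ratio is higher at 6 to 24 h, that to miR-150 reaching 0.65 to 1.29 from at most 0.62 before PHx.

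The change of each ratio from before to after PHx, all 4 times together, was tested by exact permutation of the arrays within each diet (2450 relabelings, two-sided, 8 ratio tests adjusted together by Benjamini-Hochberg). These relabelings treat arrays of the same animals as independent. MiR-223 gained 0.68 on miR-150 (exact p 0.00408, adjusted p 0.0163 by exact permutation), a fold of 1.60. It gained 0.58 on miR-142-3p, 0.50 on miR-146a and 0.50 on miR-342-3p (exact permutation, adjusted p 0.0255 for each). These 4 tests share miR-223, whose own mean change on the same arrays was 0.56. The mean changes of the other members ran from -0.12 to 0.06. The 4 tests thus largely restate the rise of miR-223 and are not independent of it or of each other. Within pools of the same animals the gains were 0.65, 0.63, 0.48 and 0.45, with 6, 6, 7 and 7 of 7 pools above 0. By exact sign flips over the 7 pools, which cannot give a p below 0.0156, the adjusted p was 0.05 for each of the 4, at the threshold and not under it. Within slides, the gain on miR-150 was 0.39 on slide 1 and 1.00 on slide 2, and the gain on miR-142-3p was 0.39 and 0.79. The arrays after PHx on slide 1 are those of 1 h and 6 h.

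Leaving out single arrays moved some of these tests just past the threshold. Without CHO replicate 2 before PHx each of the 4 missed it, by exact permutation with adjusted p of 0.05 to 0.0536. Without EtOH replicate 1 before PHx the ratios to miR-142-3p (0.53), miR-146a (0.51) and miR-342-3p (0.48) missed it. Without CHO replicate 4 before PHx the ratio to miR-142-3p (0.54) missed it, and without CHO 24 h the ratio to miR-342-3p (0.45). Over all alternatives the adjusted p ran from 0.00381 to 0.0564.

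Between the diets, the ratio of miR-223 to miR-150 was higher in EtOH by 0.34 (560 relabelings within times, two-sided exact permutation p 0.00357, adjusted p 0.0163), a fold of 1.26. Those relabelings count the arrays before and after PHx of the same animals as independent, so this p is too small. In the 7 pairs of an EtOH and a CHO array the difference was 0.37, above 0 in 6 of 7, and with the same limit did not pass (exact sign flips, adjusted p 0.05). These 7 pairs come from 4 sets of pair-fed pools. With 1 value per set the difference was 0.70, 0.31, 0.15 and 0.29 in the sets of 1, 6, 12 and 24 h, a mean of 0.36 and above 0 in 4 of 4. The exact sign-flip p over sets was 0.125, the smallest that 4 sets can give, so the diet difference of this ratio cannot pass a test over sets. It was 0.50 on slide 1 and 0.18 on slide 2. Without CHO replicate 2 before PHx the difference was 0.34 and did not pass by exact permutation (adjusted p 0.05, in a range of 0.0114 to 0.5 over all alternatives). The other 3 ratios differed between the diets by 0.16 for miR-142-3p, 0.02 for miR-146a and 0.06 for miR-342-3p, and none passed by exact permutation (adjusted p 0.374, 0.689 and 0.645). With the authors' values the difference for miR-342-3p was -0.08. The diet difference of the ratio to miR-150 largely restates that of miR-150 itself. Over both phases miR-150 differed by -0.37 and miR-223 by -0.003.

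The second probe of each detected member, of which each has 10 spots per array, ran in the same direction for the called results. For miR-223 it gave a mean change of 0.51 beside 0.56, and for miR-142-3p a diet difference before PHx of -0.48 beside -0.50. For miR-150 it gave -0.29 beside -0.38 before PHx and -0.46 beside -0.35 after it. The second probe of miR-223 put the diets 0.16 apart before PHx, where the first put them 0.03 apart.

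Over the 15 arrays the profile of miR-223 correlated weakly with those of the other members. Pearson correlations of log2 scaled signal are given as a description, since the arrays share diets, times and animals. Those of miR-223 were -0.20 with miR-142-3p, 0.13 with miR-146a, -0.14 with miR-150 and 0.24 with miR-342-3p. The highest between members were 0.52 for miR-146a and miR-150, 0.50 for miR-146a and miR-342-3p, and 0.45 for miR-150 and miR-342-3p. Among all tested miRNAs, the profiles most like that of miR-223 were those of miR-345-5p (0.84), miR-21 (0.75) and miR-17 (0.74). The nearest to miR-142-3p were miR-126* (0.77), miR-200a (0.74) and miR-10a-5p (0.74). The nearest to miR-150 were miR-26a (0.82), miR-125b-5p (0.79) and miR-195 (0.78), and the nearest to miR-146a were miR-128 (0.68), miR-652 (0.66) and miR-500 (0.66). For miR-342-3p they were miR-29a (0.67), miR-672 (0.67) and miR-466b (0.66). Without the CHO 12 h array, the last 2 fell to 0.39 and 0.36.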

How the data were processed

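RNA from 15 liver pools was measured on single-colour Agilent miRNA arrays. The authors deposited scanner files with spot intensity values, background-subtracted by Agilent Feature Extraction (10.5.1.1 per the file headers and, per the submitters' processing notes, 10.7.3.1). The authors also deposited a table of log2 values of the same arrays, with no stated method or scale. Outlier spots (2.38%) were left out, and spots were averaged per probe. Signals of each array were divided by the 75th percentile of the 185 probes that all arrays detected, floored at 9.61 and log2-transformed. Each miRNA was represented by its brightest probe, and miRNAs detected on at least 3 arrays were tested (134 of 350).

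The limma package (3.58.1, R 4.3.3) fitted all arrays jointly, with a diet effect in each phase and an effect of each time, leaving 8 residual degrees of freedom. Diet at single times came from a model with a separate mean for each of 10 groups, leaving 5. The 8 of the joint fit thus also hold variation of the diet difference over the times after PHx, beside spread between pools. Calls are adjusted p-values under 0.05. Ratios were tested by exact permutation. Both steps were tested on simulated data.

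Per the labels' animal identifiers, 7 of 8 pools have arrays before and after PHx from the same animals, and the 1 h and 6 h pools share 1 animal in each diet. Residuals of paired arrays correlated between -0.10 and 0.24, above 0.1 in 4 of 7 pools. The fits had no block, and blocked values stand beside the results they change.

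Members, lists and tests were chosen with earlier results of these data known. The miRNAs named are all members, the 3 tested miRNAs closest to each in profile, and members of the cell-type lists as examples. Alternatives covered scaling, background, floor, detection, probes, slide, pairing, the authors' values and leaving out each array. Normexp with 1 background value per array, the pool as a random block, the mean over both phases, 1 value per pair-fed set and the correlations without CHO 12 h were added after seeing the data.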

Additional observations from a re-analysis of the deposited data

How the results depend on the processing

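In all, 12 called results were recomputed under 327 alternatives: 245 kept direction and call, 79 lost the call and 3 turned sign. The cause of these changes was not tested, except that fits without an array, within a slide or with a block have fewer degrees of freedom, and the fit without a detection filter adjusts over more miRNAs. Scalings moved the median of all tested miRNAs by up to -0.45 for diet before PHx (no scaling) and 0.24 for diet after PHx (percentile over all probes).

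The rise of miR-223 lost its call at 6 h with the percentile over all probes (0.54), no scaling (0.64), the authors' values (0.58), normexp (0.32), normexp with 1 background value per array (0.37), no detection filter (0.67) and the replicate block of pair-fed pools (0.73). At 12 h it lost it with normexp (0.42) and normexp with 1 background value (0.49). At 24 h it lost it with quantile normalization (0.42), no scaling (0.71), the authors' values (0.41), normexp (0.91), normexp with 1 background value (0.30), no detection filter (0.60), within slide 2 (0.52), and with the replicate block of the pool (0.54) or of pair-fed pools (0.65). The mean change lost it with both forms of normexp (0.39 and 0.28). Normexp with local background could not be relied on for 2 arrays, where its fit failed.

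For miR-142-3p before PHx the call was lost with the percentile over all probes (-0.44), quantile normalization (-0.44), the mean over all probes (-0.49), no detection filter (-0.50), slide as a block (-0.47), within slides 1 and 2 (-0.47 each) and the pair-fed block (-0.44). The sign turned with both forms of normexp (0.36 and 0.15). Its mean over both phases lost the call with the percentile over all probes (-0.15), quantile normalization (-0.18), the authors' values (-0.28), a floor at 1 (-0.30), normexp (-0.080), no filter (-0.30), slide as a block (-0.29), within slides 1 and 2 (-0.39 and -0.19) and the blocks of pools (-0.30) and pair-fed pools (-0.27), and turned sign with normexp and 1 background value (0.072). The same mean of miR-150 lost its call with the percentile over all probes (-0.21), quantile normalization (-0.25), both forms of normexp (-0.21 and -0.062) and within slide 2 (-0.25).

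The ratios of miR-223 after minus before PHx lost the call within pools: 0.63 for miR-142-3p, 0.48 for miR-146a, 0.65 for miR-150 and 0.45 for miR-342-3p, as did the diet difference for miR-150 within the 7 EtOH-CHO pairs of arrays (0.37) and with 1 value per pair-fed set (0.36). Besides the calls named here and those that miR-150 gained in each phase with the pair-fed block, the pairing changed no other call.

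With each array left out, miR-223 changed by 0.56 to 0.79 at 6 h and 0.48 to 0.71 at 24 h. MiR-142-3p differed by -0.61 to -0.33 before PHx and by -0.36 to -0.22 over both phases. The ratio gains were 0.47 to 0.72 for miR-142-3p, 0.40 to 0.61 for miR-146a, 0.60 to 0.80 for miR-150 and 0.44 to 0.61 for miR-342-3p, and the miR-150 diet ratio was 0.26 to 0.42.

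Of 76 uncalled results, 27 of 2248 alternatives made a call and 4 turned sign with a call: miR-223 before PHx without scaling (-0.50), and with normexp the diet difference at 24 h of miR-223 (-1.32), miR-142-3p (-2.25) and miR-146a (-0.94). Counts of called miRNAs moved too. Apart from fits that left out arrays or used 1 slide, these ran from 0 to 76 for diet before PHx, 0 to 30 for diet after it, 0 to 49 over both phases, 0 to 6 at 6 h, 0 to 13 at 12 h, 0 to 20 at 24 h and 0 to 15 for the mean change. With each array left out they ran from 14 to 34 for diet before PHx, 1 to 33 after it, 22 to 48 over both phases, 0 to 8 at 6 h, 8 to 12 at 12 h, 11 to 21 at 24 h and 7 to 13 for the mean change. In the fits on all arrays, counts for diet at 1, 6, 12 and 24 h reached 14, 4, 13 and 112. With the pool as a block 3 rather than 8 passed at 12 h and 0 rather than 18 at 24 h, and without scaling 76 rather than 21 passed for diet before PHx.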
